A study of Mus musculus with 3 samples.

Results

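Mature adipocytes (MA) of mouse epididymal fat were compared with cultured small proliferative adipocytes (SPA), with 1 microarray for each, so the comparison uses 2 of the 3 arrays of the series. Fat of male C57/BL mice aged 20 weeks was digested with collagenase. After a first spin of 1 s at 9 g, the floating cells were spun at 226 g for 3 min, and the cells that still floated were taken as MA. The sediment of that second spin was grown in culture medium to 90% confluence and taken as SPA, and the third array holds the cultured stromal vascular cells (SVC) from below the first spin. The records give no genotype beyond the strain, no treatment and no pooling, and no culture is described for MA. The titles of the MA and SPA records carry different dates without saying what was done on them. Cell type, culture and whatever the dates mark therefore cannot be told apart between MA and SPA. The level of a gene is the log2 of its processed signal minus the log2 of the 75th percentile of its array, so a level of 0 is the brightness of that percentile and a difference of 1 is 2-fold. Every difference was read from 1 array against 1 array, without a test and without a p-value.

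Besides adipocytes, fat tissue holds progenitors, vessels, macrophages and other blood cells. A mature adipocyte stores triglyceride in a large droplet, takes up glucose under insulin, secretes hormones such as adiponectin and does not normally divide. Cells grown on plastic, in contrast, can divide and spread on actin fibres. In a bulk sample, fewer cells of a type and less RNA per cell cannot be told apart.

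The arrays hold 37296 genes, of which 24084 were well above background in MA or SPA, and 20764 were so on both. A gene was called when it differed by at least 5-fold between MA and SPA. Where 1 of the 2 arrays did not show a probe well above background, its difference is a bound and is written as at least so many fold. By this rule 1317 genes (5.47%) were higher in MA and 955 (3.97%) were lower, so 9.43% were called either way. Each count of list members below is to be set against these shares. The study has a table of genes higher in MA than in SPA, sorted into adipocyte, fat tissue and neuronal genes. It holds 44 of the genes called higher, which leaves 1273 outside it, and no gene called lower could enter it. The other array table of the study, on SPA and SVC, was not used to sort genes as inside or outside. Some genes named below as outside the first table are in that other one, such as Cyp2e1, Slc7a10, Acvr1c, Ecel1 and Prl2c5. Among genes measured on both arrays the median log2 ratio was -0.08 with an SD of 1.37 over genes, and 68.2% of them lay within 2-fold. The 989 genes called higher in MA and measured on both arrays had a median fold of 9.35, and 41 of them reached 100-fold. For the 762 genes called lower and measured on both, the median fold was 7.66, and 12 reached 100-fold. Bounds are left out of these folds, and some bounds in each direction passed 100-fold as well. At 5-fold the higher side therefore held more genes, and it held larger differences among genes measured on both arrays. At a limit of 2-fold the lower side held more genes, 4327 against 3786.

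**Figure D1:**
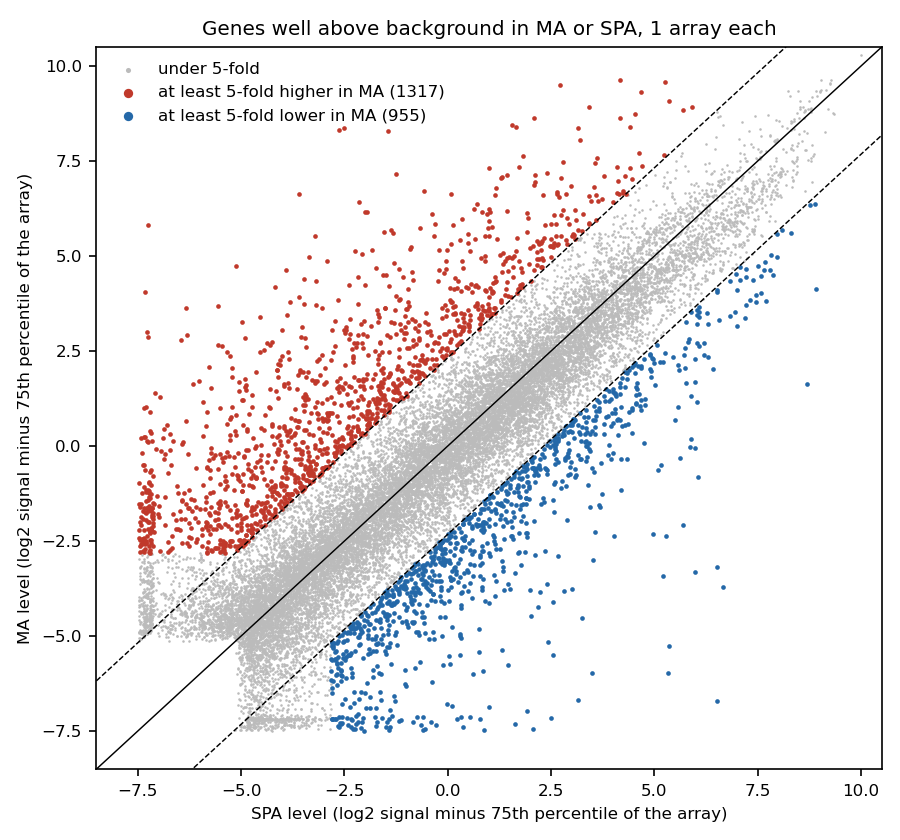
Levels of genes well above background in MA or SPA, with SPA on the horizontal and MA on the vertical axis, both as log2 signal minus the 75th percentile of the array. Each point is 1 gene, the solid line marks equal levels and the dashed lines mark 5-fold, with 1317 genes above the upper and 955 below the lower one. The points at the left and lower edges are genes at the background of 1 array, whose differences are bounds.

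Both arrays passed the checks that the files allow. The share of spots well above background was 61.3% in MA and 61.4% in SPA, and 0 spots were saturated. For 300 probes printed 10 times, the median SD of log2 signal within an array was 0.046 in MA and 0.04 in SPA, which covers neither animals nor cultures. Feature Extraction flagged an outlying local background at 5.01% of spots in SPA and 1.85% in MA. In SPA it was flagged for 7.02% of the genes called lower and 5.32% of those called higher, against 6.37% of all genes read. In MA the shares were 1.99% of the genes called lower and 3.64% of those called higher, against 2.18% of all genes read. The part of this flag in single values was not tested. The flag is named below for some genes that carry it, not for all. All 12 adipocyte markers were well above background in both MA and SPA, and 11 of them were called higher in MA, with a median log2 ratio of 5.2. Leptin (Lep) was the other one, at 0.97 in MA, -1.12 in SPA and -1.36 in SVC. Adiponectin (Adipoq) was at 8.44 in MA, 1.56 in SPA and -5.36 in SVC, where it was not well above background. The label of MA is thus borne by its markers, and 7 of the 11 called markers are in the table of the study, which was chosen on these samples and is no independent evidence.

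The genes with the largest differences outside that table are shown first, beginning with genes lower in MA. The probe of Gpnmb, a membrane glycoprotein of phagocytes and osteoclasts, lies at chr6:49006386-49006445 in mm9, the build of the array annotation. Its level was -3.18 in MA, 6.51 in SPA and 5.26 in SVC, and was 824-fold lower in MA than in SPA. Mmp12, the macrophage elastase, was at -3.32, 5.98 and 4.59 in the same order and was 627-fold lower. Spp1, which encodes the secreted phosphoprotein osteopontin, was at -3.42, 5.22 and 4.78 and was 398-fold lower. In all of these genes MA stood alone and SPA and SVC lay nearer to each other. Atp6v0d2, a subunit of the vacuolar proton pump found in osteoclasts and macrophages, was 100.1-fold lower at -4.10 in MA, 2.55 in SPA and 1.36 in SVC. Timp1, an inhibitor of matrix metalloproteinases, was among the brightest genes of the cultures, at 8.69 in SPA and 8.70 in SVC, and was 133-fold lower in MA at 1.63.

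Gm10639, a predicted gene of the glutathione transferase cluster on chromosome 9, was 1313-fold lower in MA, at -3.70 against 6.65 in SPA and 3.62 in SVC. Its neighbour Gsta2, whose probe lies at chr9:78178856-78178915 in mm9, was not well above background in MA and at 5.35 in SPA and 2.27 in SVC, which is at least 1445-fold lower. Copies of this cluster are nearly alike, so the probes may read several of them. Akr1c18, an aldo-keto reductase that inactivates progesterone, was 155-fold lower at -2.31 in MA, 4.97 in SPA and 2.36 in SVC.

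Prl2c5, a proliferin of the prolactin family with its probe at chr13:13283943-13284002 in mm9, had the largest bound, at least 3247-fold lower in MA, where it was not well above background, while SPA was at 6.52 and SVC at 2.25. The local background of its SPA spot was outlying. Cck, the precursor of the gut and brain peptide cholecystokinin, was at -2.09 in MA, 5.69 in SPA and 6.13 in SVC and was 219.9-fold lower. Neuropeptide Y (Npy) was not well above background in MA, against 3.50 in SPA and 1.98 in SVC, and was at least 401-fold lower. These 3 genes were above the 75th percentile in both cultures and below it in MA. Kif1a, a kinesin that carries vesicles along axons, was 219-fold lower, Rnf128, a ubiquitin ligase, 200.0-fold, and Steap1, a metalloreductase, 98.1-fold. Hmga2, a chromatin protein of embryonic and growing cells, was 108-fold lower, at -3.75 in MA, 3.01 in SPA and 2.90 in SVC. Ecel1, an endopeptidase-like protein, was at least 315-fold lower by the brighter probe, while its other probe gave a log2 ratio of -0.70. For Slco4a1, an organic anion transporter, the fold was 89.9 by the probe that was read, and another of its 3 probes gave 0.18 on the log2 scale, so the difference depends on the probe.

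**Figure D2:**
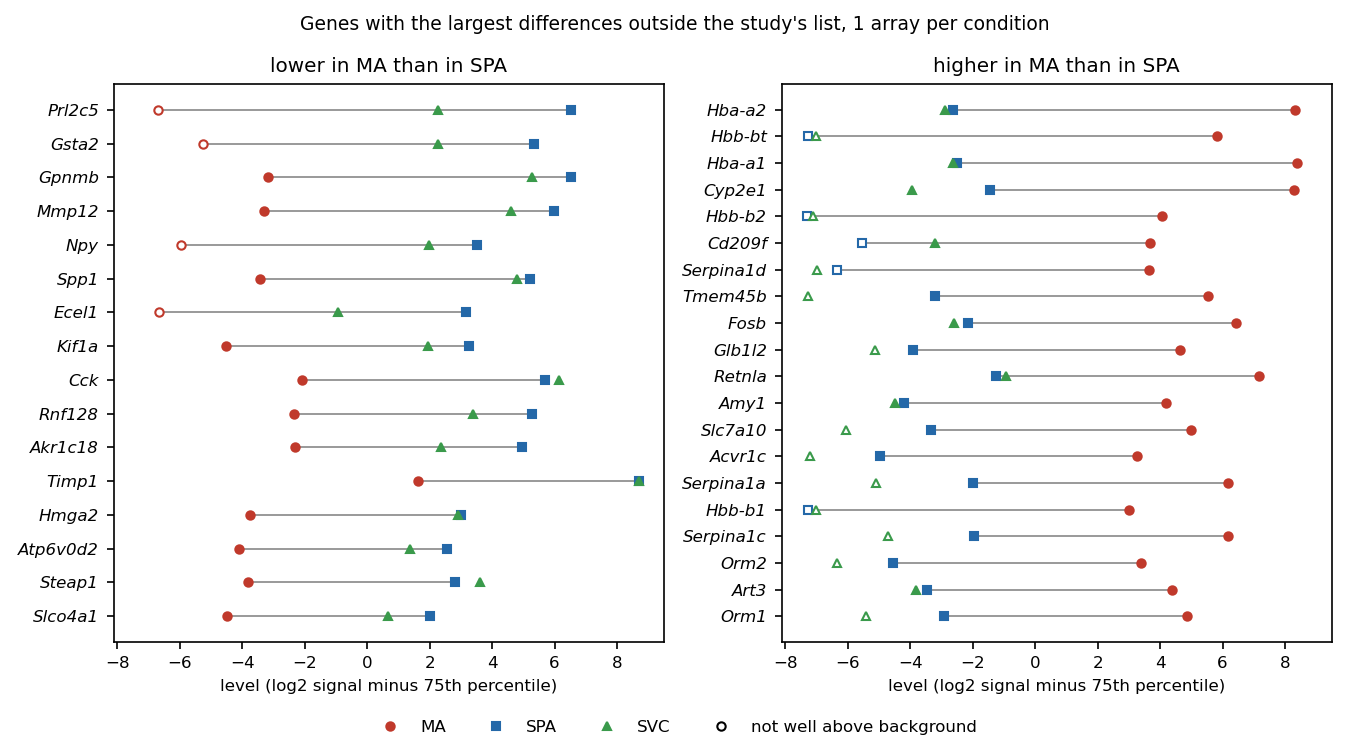
Levels of the genes with the largest differences outside the table of the study, as log2 signal minus the 75th percentile of each array. Circles are MA, squares SPA and triangles SVC, open symbols were not well above background and genes are ordered by fold or bound. On the left, MA lies below both cultured fractions in each gene shown, and on the right MA lies above both.

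Among genes higher in MA outside that table, haemoglobin genes had the largest differences. Hba-a2 and Hba-a1, which encode the alpha chains of haemoglobin, were 1991-fold and 1906-fold higher. Hba-a2 was at 8.32 in MA, -2.64 in SPA and -2.88 in SVC. Hbb-bt, a beta chain, was at 5.81 in MA and not well above background in SPA or SVC, which is at least 1974-fold. Haemoglobin genes are nearly identical in pairs, so their probes may share signal. Cyp2e1, a cytochrome that oxidises ethanol and ketones, with its probe at chr7:147960628-147960687 in mm9, was at 8.28 in MA, -1.44 in SPA and -3.96 in SVC. It was 846-fold higher, with an outlying local background at its MA and SPA spots. Serpina1a, an alpha-1-antitrypsin gene, was 287-fold higher and Serpina1c 281-fold, while Serpina1d was at least 434-fold higher. These are close copies too. The orosomucoids Orm1 and Orm2, plasma proteins of the acute phase, were 219.5-fold and 248-fold higher.

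Other leading genes act in signalling and transport. Fosb, an immediate-early transcription factor with its probe at chr7:19888168-19888227 in mm9, was at 6.43 in MA, -2.14 in SPA and -2.60 in SVC and was 378-fold higher. Retnla, a secreted protein related to resistin, was 345-fold higher at 7.17 in MA, -1.26 in SPA and -0.93 in SVC. Acvr1c, the activin receptor ALK7 of adipocytes, was 303-fold higher at 3.27 in MA and -4.97 in SPA, with an outlying local background in MA. MA stood above both cultures in all of them. Cd209f, a lectin of the DC-SIGN family, was at least 451-fold higher. The salivary-type amylase Amy1 was 333-fold higher, and the membrane protein Tmem45b 429-fold. Slc7a10, a carrier of small neutral amino acids, was 321-fold higher by the probe that was read, and its second probe gave a log2 ratio of 0.28. Glb1l2, a beta-galactosidase-like gene, was 373-fold higher with a second probe at 2.07, and Art3, an ADP-ribosyltransferase relative, was 233-fold higher with the lowest of 6 probes at 0.11.

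Genes of cell division were lower in MA as a group. Dividing cells first copy their DNA in S phase with the help of replication factors, and then separate the chromosomes in mitosis under kinases such as Plk1 and cyclin B with Cdk1. All 36 mitosis genes and all 27 S phase genes had a negative log2 ratio of MA over SPA. Of the mitosis genes 28 were called lower and 0 higher, and their median was -2.98. Of the S phase genes 14 were called lower and 0 higher, and their median was -2.4. Over all genes 3.97% were called lower and the median was -0.07.

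Plk1, the polo-like kinase of mitotic entry, was at -0.67 in MA, 3.53 in SPA and 4.52 in SVC and was 18.4-fold lower in MA. Ccnb1, the cyclin B1 that activates Cdk1, was at -1.47, 2.33 and 3.11 and was 14.0-fold lower. Ttk, a spindle checkpoint kinase, was not well above background in MA, against -1.04 in SPA and -0.24 in SVC, and was at least 17.3-fold lower. The same order, lowest in MA and highest in SVC, held for each of these. The spindle genes Kif20a, Tpx2 and Aurka were 13.4-fold, 12.6-fold and 11.7-fold lower, the checkpoint gene Bub1 13.3-fold and the survivin gene Birc5 11.3-fold, and the spots of Kif20a and Tpx2 in SPA had an outlying local background. Mki67, the usual marker of cycling cells, was under the limit at 1.13 in MA, 3.31 in SPA and 4.06 in SVC. Mitosis genes were not at background in MA, since 35 of the 36 were well above it there.

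Among S phase genes, Rrm2, the small subunit of ribonucleotide reductase, was at 0.34 in MA, 4.45 in SPA and 4.69 in SVC and was 17.3-fold lower in MA. Uhrf1, which keeps DNA methylation through replication, was 12.7-fold lower, thymidine kinase Tk1 11.3-fold and the flap endonuclease Fen1 9.22-fold. The MCM helicase genes Mcm5 and Mcm6 were 8.51-fold and 7.68-fold lower, Mcm10 9.59-fold and the licensing factor Cdt1 7.88-fold. The SPA spot of Cdt1 had an outlying local background. Pcna, the sliding clamp of the DNA polymerases, was brightest of the S phase genes in MA at 2.90, with 4.71 in SPA and 4.42 in SVC, and was not called. Of 18 p53 targets and CDK inhibitors, 2 were called lower and 1 higher. Cdkn2a (p16 and p19) was 18.1-fold lower in MA, at -3.86 against 0.32 in SPA and 0.90 in SVC. Cdkn2c (p18) went the other way, at 4.19 in MA, 0.73 in SPA and 1.26 in SVC, 11-fold higher. These 2 inhibitors of the INK4 family differed in opposite directions, while the other members Cdkn2b and Cdkn2d were not called, with log2 ratios of -1.02 and -0.48.

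The promoters of these genes were read for short motifs, because mitosis genes are known for a CCAAT box near a cell cycle homology region (CHR, TTTGAA), and S phase genes for E2F motifs (TTTCCCGC or TTTGGCGC). A promoter was the 250 bases before and the 50 after a RefSeq start in GRCm38.p6, both strands were read and neighbouring matches may share a base. Of the 32 promoters found for 30 of the 36 mitosis genes, 23 (71.9%) held TTTGAA, against 13.4% of the 17428 promoters of genes well above background. CCAAT was in 24 of the 32, against 37.5% of all and 83.3% of 18 promoters of cholesterol synthesis, both were in 62.5% against 5.33%, and an E2F motif was in 0. Of the 24 promoters found for 21 of the 27 S phase genes, 33.3% held an E2F motif, against 2.4%, and 12.5% held TTTGAA. A match is a run of letters and no proof of binding. To show these letters in place, 3 mitosis promoters with CCAAT (or ATTGG) and TTTGAA (or TTCAAA) in capitals, and 1 S phase promoter with TTTGGCGC in capitals, are shown 5′ to 3′ up to the start, for genes called lower in MA. Cdc20, the activator of the anaphase-promoting complex, was 10.1-fold lower, Cdk1 7.02-fold and the topoisomerase Top2a 7.74-fold.
Cdc20, chr4:118437344-118437593, minus strand: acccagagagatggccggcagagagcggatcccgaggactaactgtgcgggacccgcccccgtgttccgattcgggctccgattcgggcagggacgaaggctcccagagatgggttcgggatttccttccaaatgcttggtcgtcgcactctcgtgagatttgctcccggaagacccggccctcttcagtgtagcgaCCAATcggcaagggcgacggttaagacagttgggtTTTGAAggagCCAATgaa
Cdk1, chr10:69352913-69353162, minus strand: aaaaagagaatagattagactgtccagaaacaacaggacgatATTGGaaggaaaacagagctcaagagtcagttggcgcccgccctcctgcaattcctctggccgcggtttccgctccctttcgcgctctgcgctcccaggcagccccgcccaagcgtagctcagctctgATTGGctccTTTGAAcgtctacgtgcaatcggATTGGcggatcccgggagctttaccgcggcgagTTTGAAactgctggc
Top2a, chr11:99024190-99024439, minus strand: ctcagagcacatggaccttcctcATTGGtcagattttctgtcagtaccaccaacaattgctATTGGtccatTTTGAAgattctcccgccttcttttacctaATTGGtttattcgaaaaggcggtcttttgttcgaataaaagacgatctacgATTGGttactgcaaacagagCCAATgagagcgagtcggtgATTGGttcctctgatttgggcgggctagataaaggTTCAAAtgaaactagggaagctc
Mcm6, chr1:128359706-128359955, minus strand: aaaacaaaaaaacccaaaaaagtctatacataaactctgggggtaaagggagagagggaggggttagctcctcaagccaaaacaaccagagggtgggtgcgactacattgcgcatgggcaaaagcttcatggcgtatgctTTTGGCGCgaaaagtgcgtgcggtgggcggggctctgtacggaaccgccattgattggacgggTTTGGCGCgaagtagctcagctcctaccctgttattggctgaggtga
In Cdc20 the TTTGAA began 18 bases before the start, in Cdk1 the nearer one 15 bases and in Top2a the nearer one, read on the other strand, 23 bases. The 2 E2F motifs of Mcm6 began 110 and 47 bases before the start.

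Antioxidant and detoxifying genes were another group lower in MA. The factor NRF2 switches on enzymes that make and use glutathione when electrophiles or peroxides build up, and glutathione transferases couple glutathione to reactive compounds. Of 30 glutathione transferases and NRF2 targets, 11 were called lower in MA and 3 higher, with a median log2 ratio of -1.38. Nqo1, a quinone reductase, was at -2.36 in MA, 4.03 in SPA and 2.25 in SVC and was 84.3-fold lower. Slc7a11, the cystine carrier that feeds glutathione synthesis, was not well above background in MA, at 2.07 in SPA and -0.31 in SVC, and was at least 149-fold lower by its brightest probe, while the 4 probes ranged from -7.22 to -0.53 in log2 ratio. Both were highest in SPA. The subunits of the enzyme that starts glutathione synthesis followed, with Gclm 15.6-fold and Gclc 9.67-fold lower.

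Srxn1, which repairs peroxiredoxins, was 11.1-fold lower, at 3.98 in MA, 7.45 in SPA and 5.09 in SVC. Thioredoxin reductase Txnrd1 was 11-fold lower with an outlying local background in SPA, the carbonyl reductase Cbr3 10.9-fold and haem oxygenase Hmox1 8.94-fold. Hmox1 was at 4.63 in MA, 7.79 in SPA and 5.65 in SVC, so MA and SVC were closer to each other than to SPA. In the other direction, Gstt1 was 11.4-fold and Gstt2 5.59-fold higher in MA, both of the theta class, and Gstm7 at least 5.52-fold. Transferases of the mu class that were bright on both arrays differed little, such as Gstm1 at 4.98 in MA and 5.71 in SPA. The share of promoters with TGACNNNGC, the core of the antioxidant response element, was 23.5% of 34 promoters of the list against 13.6%, but it was also 32.3% of 31 promoters of immediate-early genes, which were higher in MA, and 22.2% of 18 of cholesterol synthesis. The motif was chosen after the values were seen.

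**Figure D3:**
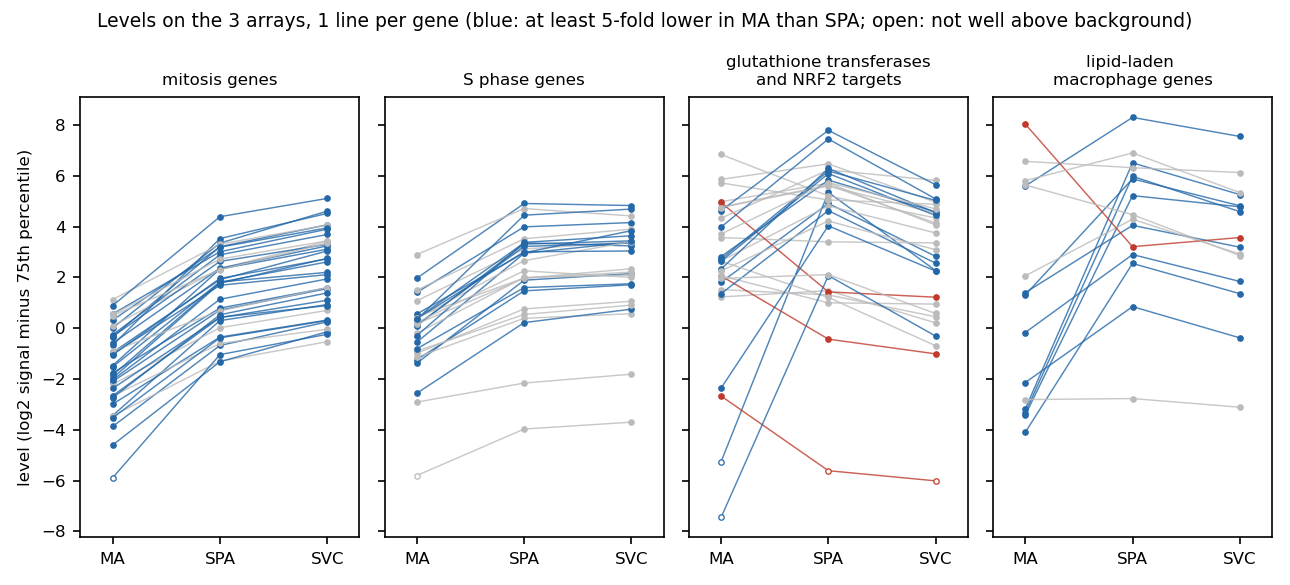
Levels of 4 gene lists on the 3 arrays, as log2 signal minus the 75th percentile, with 1 line per gene. Blue genes were at least 5-fold lower in MA than in SPA, red genes at least 5-fold higher, grey genes neither, and open points were not well above background. All 36 mitosis and all 27 S phase genes lie lower in MA than in SPA, while the other lists hold genes of both directions.

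Genes of lipid-laden macrophages were mostly lower in MA, while general macrophage markers went both ways. Macrophages of resting tissue carry scavenger receptors and complement C1q, whereas those that take up much lipid express lysosomal and matrix-degrading genes such as Gpnmb and Trem2. Of 15 genes of lipid-laden macrophages, 9 were called lower in MA and 1 higher, with a median log2 ratio of -2.7. Besides the leading genes, Trem2, a lipid-sensing receptor, was 23.7-fold lower at 1.31 in MA, 5.88 in SPA and 4.82 in SVC. The integrin Itgax (CD11c) was 8.40-fold lower, the fusion protein Dcstamp 7.96-fold with an outlying local background in SPA, the galectin Lgals3 6.50-fold and the tetraspanin Cd9 6.26-fold. Acp5, tartrate-resistant acid phosphatase, was the 1 higher gene, at 8.04 in MA, 3.21 in SPA and 3.57 in SVC, 28.4-fold.

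Of 15 general macrophage markers, 5 were called higher in MA and 1, Cd68, lower. Of their log2 ratios 8 were positive and 7 negative, with a median of 0.45. Cd163, the haemoglobin scavenger receptor, was at 1.70 in MA and not well above background in SPA, at least 114-fold higher, with -4.39 in SVC. The C1q genes C1qa, C1qb and C1qc were 11.3-fold, 12.3-fold and 12.5-fold higher. Their levels were 2.99, 2.79 and 4.15 in MA, -0.50, -0.83 and 0.50 in SPA, and 2.68, 1.66 and 3.31 in SVC. For C1q the cultured SVC thus lay nearer to MA than to SPA. Cx3cr1, the fractalkine receptor, was at least 10.1-fold higher in MA. The other 9 were not called. Of these, Csf1r was at 4.97 in MA and 5.37 in SPA, and Ptprc (CD45) at 1.71 and 1.91, whereas Adgre1 (F4/80) and the lysozyme gene Lyz2 were 3.9-fold and 3.65-fold lower. Cd68 was 8.58-fold lower, at 3.20 in MA, 6.30 in SPA and 5.42 in SVC. The summed signal of the 15 markers was 236 times the 75th percentile in MA, 624 in SPA and 582 in SVC, so macrophage transcripts were present in every fraction. Their part in the genes described here was not tested.

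The lysosome as a whole leaned the same way as Cd68, which together with Atp6v0d2 belongs to the lysosomal list itself. Of 29 lysosomal proteases and proton pump genes, 28 had a negative log2 ratio and 6 were called lower, 0 higher, with a median of -1.68. Ctss, a cathepsin of antigen-presenting cells, was 11.2-fold lower at 3.72 in MA, 7.21 in SPA and 6.69 in SVC. Tcirg1, a subunit of the proton pump, was 8.97-fold lower, Ctsa 6.77-fold and Ctsz 5.26-fold. Bright cathepsins that were not called were Ctsb at 7.93 in MA and 8.82 in SPA, Ctsd at 6.71 and 8.65, and Ctsl at 6.17 and 7.36. Ctsc had the 1 positive log2 ratio at 1.07.

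Genes of spreading, contraction and the matrix showed a partial difference. Of 32 actin and adhesion genes, 28 had a negative ratio, 6 were called lower and 0 higher, with a median of -1.14. Tubb2b, a tubulin of neurons and growing cells, was at -0.19 in MA, 4.0 in SPA and 4.12 in SVC and was 18.3-fold lower. The actin cross-linkers Actn1 and Flnc were 11.2-fold and 8.57-fold lower, and the calponin Cnn2 and tropomyosin Tpm2 6.33-fold and 6.22-fold. Tpm1 was 5.23-fold lower by its brightest probe, while the 4 probes ranged from -2.39 to 0.88. Actb itself, beta actin, was at 8.86 in MA and 9.19 in SPA, within 2-fold. Of 13 smooth muscle and pericyte markers read, 4 were higher and 2 lower. The lower ones were Tagln, 8.58-fold, and Acta2, 6.48-fold, while the smooth muscle genes Myh11, Des and Myocd had log2 ratios of 1.06, 0.63 and 0.15. Among the higher ones, the pericyte genes Rgs5, Kcnj8 and Abcc9 were 40.2-fold, 39.2-fold and 22.9-fold higher. Ankrd1, a target of the YAP and TEAD factors that respond to stretching, was not well above background in MA, at 0.36 in SPA and 2.79 in SVC, and was at least 45.4-fold lower. It was the only one of 14 such targets to be called.

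For collagens the balance was opposite, with 7 of 26 chains called higher in MA and 1 lower, and a median of 1.31. Col6a2 and Col6a1 of the microfibrillar collagen VI were 12.9-fold and 10.8-fold higher, and the basement membrane chain Col15a1 11.4-fold. Col3a1 was 7.32-fold higher by the brightest of 3 probes, and another gave -2.26. Col1a1 and Col1a2 of collagen I were at 5.38 and 7.50 in MA and at 5.21 and 7.06 in SPA, but the probes of Col1a2 ranged from -3.61 to 0.45 in log2 ratio. Col12a1, which binds collagen fibres, was 24.5-fold lower at -3.28 in MA, 1.34 in SPA and 0.96 in SVC, with an outlying local background in SPA. Of 26 collagen-modifying and matricellular genes 3 were lower, 1 higher and 22 neither, with a median of -0.56. The lower ones were Lox, a cross-linking enzyme, 17.2-fold, Fbln2 8.07-fold, and Ltbp2, a fibrillin relative, 29.4-fold by its brighter probe, while its other probe gave -0.58. Elastin (Eln) was higher, 11.6-fold. Lox was at 1.66 in MA, 5.77 in SPA and 6.15 in SVC.

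Matrix proteases and their inhibitors held the widest range, from -9.29 for Mmp12 to 6.43 for Timp4 on the log2 scale. Of 28, 6 were called lower and 4 higher. Mmp3, stromelysin, was not well above background in MA, at 1.46 in SPA and 0.58 in SVC, and was at least 97.5-fold lower. Mmp8 was 23.8-fold lower and Mmp11 12.8-fold. Timp4, the inhibitor known from adipocytes, was at 4.68 in MA and -1.74 in SPA, 86.0-fold higher, and not well above background in SVC. So Timp1 and Timp4 differed in opposite directions.

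Signals and growth genes were mixed as well. Of 16 genes of a list of Wnt, BMP and TGF-beta antagonists and activins, 5 were higher and 2 lower. Inhba, the activin A subunit, was 34.6-fold lower in MA at -2.75, against 2.36 in SPA and 3.52 in SVC, and the BMP antagonist Grem1 at least 8.46-fold lower. The antagonists Sfrp5 of Wnt and Chrdl1 of BMP were 119-fold and 65.8-fold higher. Il11 was 23.0-fold lower, the antagonist Il1rn 19.6-fold and Csf1, the growth factor of macrophages, 14.0-fold, with an outlying local background of Csf1 in SPA. Csf1 was at 2.40 in MA, 6.20 in SPA and 6.24 in SVC. The receptor Il7r was 57.3-fold lower, at -2.27 in MA, 3.57 in SPA and 1.94 in SVC, although it is listed among lymphocyte markers, 7 of which were higher. S100a4, a calcium-binding protein of fibroblasts and macrophages, was 27.3-fold lower at 4.14 in MA, 8.91 in SPA and 8.61 in SVC.

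Proliferins and some clade B serpins were lower in MA. Of 7 prolactin family genes read, 3 were called lower in MA, and these were the proliferins Prl2c5, Prl2c3 at least 201-fold and Prl2c1 61.4-fold, whose sequences are close. Prl2c1 was at -0.31 in MA, 5.63 in SPA and 2.14 in SVC. Of 17 clade B serpins, protease inhibitors inside cells, 6 were called lower, 0 higher and 11 neither. Among the 11, Serpinb6a was at 4.94 in MA and 7.25 in SPA, and Serpinb8 lay higher in MA at 3.93 than in SPA at 3.25. Serpinb9f was not well above background in MA or SVC and at -0.41 in SPA, at least 26.8-fold lower in MA. Serpinb9e and Serpinb9g were at least 24.5-fold and 13.4-fold lower and were also above background in SPA alone, and Serpinb9e had an outlying local background in MA and SPA. All 3 are dim, and with a normexp background correction 1 rather than 6 of the clade B serpins reached 5-fold.

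Glycolysis genes, ATF4 targets and ribosome biogenesis genes had more negative than positive ratios. Of 20 genes of glycolysis and lactate export, 6 were called lower and 1 higher, with a median of -0.91. The lactate exporter Slc16a3 was at 0.54 in MA, 4.21 in SPA and 4.07 in SVC and was 12.7-fold lower. Pkm, the last enzyme of the pathway, was 6.89-fold lower, the glucose carrier Slc2a1 6.37-fold and Eno2 7.64-fold. Ldhb, the lactate dehydrogenase of oxidative tissue, was the 1 higher gene, 8.55-fold. Of 24 targets of ATF4, a factor of amino acid shortage, 5 were lower and 2 higher, with a median of -0.44. The lower ones were Slc7a11, the pseudokinase Trib3 at 11.8-fold and the mitochondrial one-carbon enzymes Aldh1l2 at 38.7-fold, Mthfd2 at 16.7-fold and Shmt2 at 6.90-fold. The SPA spot of Trib3 had an outlying local background. The higher ones were the glutamine carrier Slc1a5 at 15.9-fold and the hormone Fgf21 at least 7.97-fold. Aldh1l2 was at -4.99 in MA, 0.29 in SPA and -0.12 in SVC. In ribosome biogenesis 19 of 20 genes had a negative ratio with a median of -1.34, yet none reached 5-fold, and the largest difference was that of Ddx21, at 0.30 in MA and 2.27 in SPA.

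**Figure D4:**
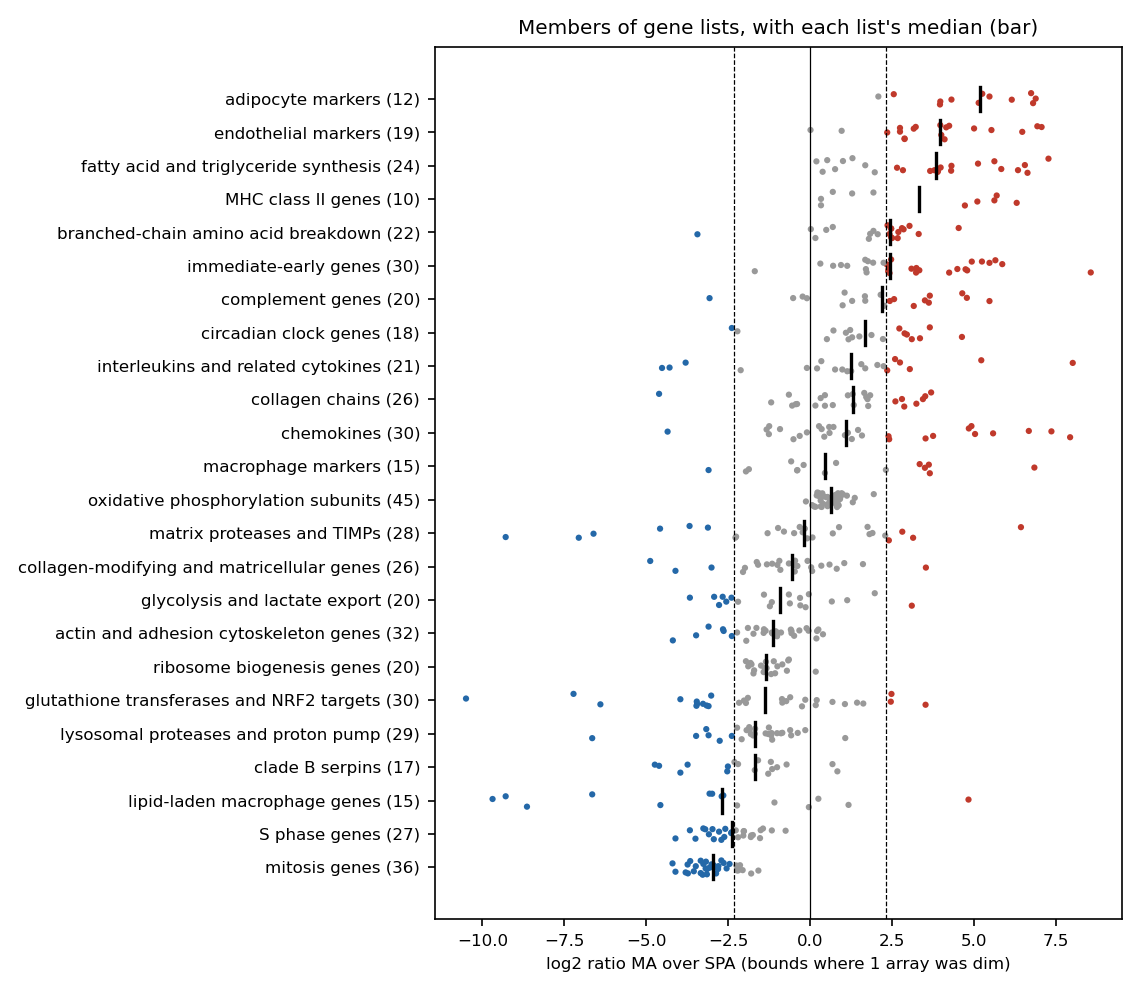
Log2 ratios of MA over SPA for the members of 24 gene lists, with the number of members read in brackets, 1 point per gene, and bounds where 1 array was dim. The black bar is the median of a list, the dashed lines mark 5-fold, red points are called higher and blue points called lower. Medians run from -2.98 for mitosis genes to 5.2 for adipocyte markers.

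Among genes higher in MA outside the table of the study, immediate-early genes differed as a group. These genes are switched on within minutes by growth factors, stress or handling of cells, without new protein. Of 30, 29 had a positive log2 ratio, 19 were called higher and 0 lower, with a median of 2.44, against 5.47% of all genes called higher. Fos, a subunit of AP-1, was at 6.24 in MA, 1.00 in SPA and 1.37 in SVC and was 37.7-fold higher. Btg2, an antiproliferative gene, was 58.3-fold higher at 5.52, -0.34 and 0.98 in the same order. Zfp36, which destabilises cytokine mRNAs, was 50.3-fold higher and the nuclear receptor Nr4a1 44.3-fold. In each of these genes the 2 cultured fractions were similar and MA was far above them. The factors Egr1 and Egr3 were 30.5-fold and 27.6-fold higher, and Socs3, an inhibitor of cytokine signalling, 26.7-fold, with an outlying local background in MA. Jun was at 7.33 in MA and 4.09 in SPA, 9.43-fold, while the AP-1 member Fosl1 went the other way at -0.49 in MA and 1.21 in SPA.

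Immediate-early genes are known for cAMP response elements (TGACGTCA), which were in 4 of 31 promoters of the list (12.9%). The share was 2.59% for promoters of genes well above background and 1.95% for those of genes called higher. Among lists that leaned lower in MA, it was 6.25% for mitosis, 6.06% for actin and adhesion and 4.17% for S phase genes. It was 0 for glutathione transferases and NRF2 targets. The AP-1 motif TGACTCA was in 0 of the 31 immediate-early promoters. For 2 called immediate-early genes with TGACGTCA, the promoter is shown up to the start, with the motif in capitals. Dusp1, a phosphatase of MAP kinases, was 8.50-fold higher at 5.34 in MA, 2.25 in SPA and 2.59 in SVC.
Btg2, chr1:134079156-134079405, minus strand: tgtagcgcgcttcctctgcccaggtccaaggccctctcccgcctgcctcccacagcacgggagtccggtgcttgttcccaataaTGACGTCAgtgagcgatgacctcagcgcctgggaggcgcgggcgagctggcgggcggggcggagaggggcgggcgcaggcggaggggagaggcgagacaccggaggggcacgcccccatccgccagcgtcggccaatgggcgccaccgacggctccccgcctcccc
Dusp1, chr17:26508473-26508722, minus strand: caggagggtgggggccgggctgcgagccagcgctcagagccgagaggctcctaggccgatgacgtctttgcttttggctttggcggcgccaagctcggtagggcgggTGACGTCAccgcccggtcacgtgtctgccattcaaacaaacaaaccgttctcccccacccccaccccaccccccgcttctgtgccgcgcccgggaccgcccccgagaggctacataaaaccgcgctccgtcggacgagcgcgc
The match began 166 bases before the start in Btg2 and 143 bases in Dusp1.

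Genes of vessels were higher in MA as a group. Of 19 endothelial markers 17 were called higher and 0 lower, at a median log2 ratio of 3.97. The table of the study holds 1 of the 17. Gpihbp1, which anchors lipoprotein lipase in capillaries, was at 5.69 in MA, -1.38 in SPA and -2.76 in SVC and was 134-fold higher. Cldn5, a tight junction protein, was 122-fold higher, the water channel Aqp1 88.8-fold and the receptor Robo4 46.3-fold. Cdh5, the cadherin of endothelium, was at 3.27 in MA, -0.97 in SPA and -2.05 in SVC and was 18.9-fold higher. The factor Sox17 was 15.6-fold higher by its brightest probe, and the lowest of its 3 probes gave -0.93. The lymphatic marker Lyve1 was at least 31.9-fold higher. Vwf and Eng were not called, at 2.38 and 1.76 in MA and 1.42 and 1.74 in SPA, and the probes of Vwf ranged from -2.01 to 0.96 in log2 ratio. The summed signal of the 19 markers was 301 times the 75th percentile in MA, 18.3 in SPA and 13.8 in SVC. How much of MA was made up of such cells was not tested.

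Lists of blood and immune cells did not all go one way. Of 9 red cell genes read, 6 were called higher and 0 lower, and the summed signal of the 10 on the arrays included here was 736 times the 75th percentile in MA, 0.683 in SPA and 0.631 in SVC. Alas2, the haem enzyme of red cell precursors, was at least 64.9-fold higher. Of 10 genes of MHC class II presentation 5 were higher and 0 lower. H2-Aa was at 2.84 in MA, -3.46 in SPA and -2.57 in SVC, 78.9-fold higher. H2-Ab1, H2-Eb1 and the invariant chain Cd74 were 51.8-fold, 49.1-fold and 34.4-fold higher, and their activator Ciita at least 26.4-fold. Of 17 lymphocyte markers 7 were higher and 1, Il7r, lower, and the higher ones were led by Gzma, a granule protease of killer cells, at least 146-fold and Nkg7 at least 38.7-fold, with an outlying local background of Nkg7 in SPA. The summed signal of the 18 lymphocyte markers on the arrays was 22.9 in MA, 19.5 in SPA and 11.2 in SVC, with Il7r the brightest in SPA. With a normexp background correction 3 rather than 7 of these markers reached 5-fold. Of 10 neutrophil genes 2 were higher and 1 lower, with 7 negative ratios and a median of -0.72, and the genes of lipid-laden macrophages were mostly lower, as given before. The part of these cells in the other differences was not tested.

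Of 30 chemokines 11 were called higher, 1 lower and 18 neither, with a median of 1.11. Cxcl9 was at 2.80 in MA and not well above background in SPA, at least 245-fold, and Ccl24, which draws eosinophils, was 164-fold and the interferon-induced Cxcl10 102-fold higher. Cxcl1, a neutrophil attractant, was at 7.14 in MA, 2.11 in SPA and 2.96 in SVC, 32.7-fold. Cxcl5 was the 1 lower chemokine, 20.3-fold at -3.50 in MA, 0.85 in SPA and 2.33 in SVC. Of 21 interleukins and related cytokines 6 were higher and 3 lower, the latter being Il11, Il1rn and Csf1. Il1b was at 2.88 in MA and not well above background in either culture, at least 259-fold, and Il6, which is in the table of the study, was 37.4-fold higher. Of 20 complement genes 9 were higher and 1, the receptor C3ar1, lower, 8.41-fold. C4b was 27.5-fold higher, at 7.19 in MA, 2.40 in SPA and 1.88 in SVC.

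**Figure D5:**
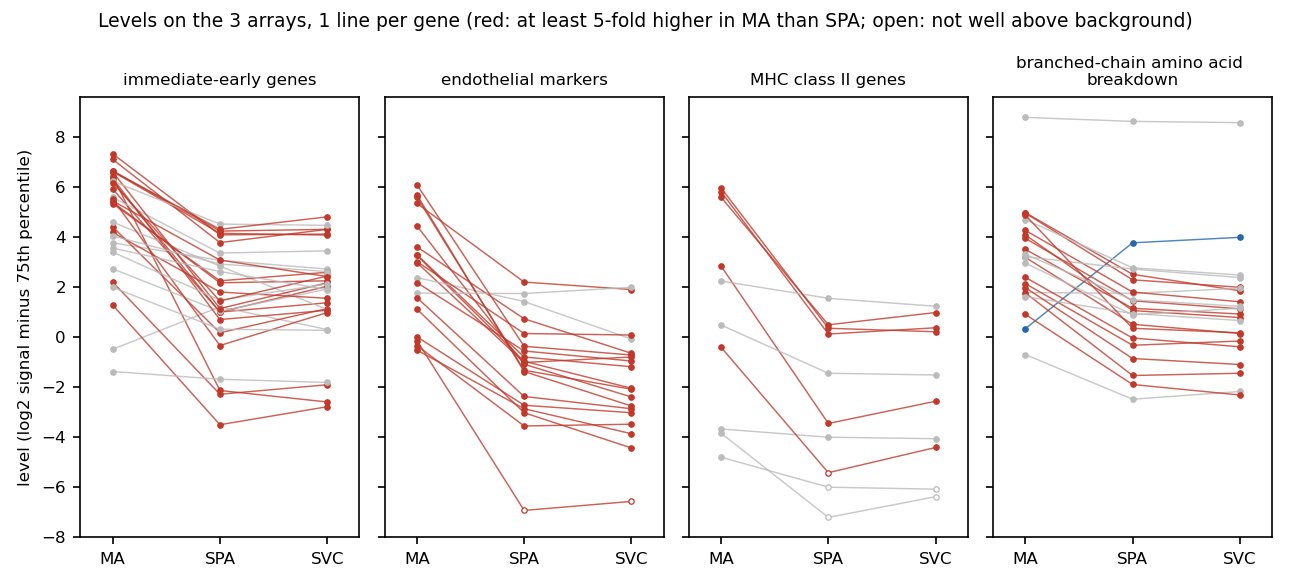
Levels of 4 gene lists on the 3 arrays, as log2 signal minus the 75th percentile, with 1 line per gene. Red genes were at least 5-fold higher in MA than in SPA, blue genes at least 5-fold lower, grey genes neither, and open points were not well above background. In the immediate-early list 29 of 30 genes and in the endothelial list all 19 genes lie higher in MA than in SPA.

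Metabolism of the adipocyte itself separated into pathways that differed much and pathways that differed little. Of 24 genes of fatty acid and triglyceride synthesis 16 were called higher and 0 lower, with a median of 3.84, and none of the 16 is in the table of genes higher in MA. Thrsp, a lipogenic regulator that the study lists for SPA over SVC, was at 6.70 in MA and -0.57 in SPA, 155-fold higher, and not well above background in SVC. Pnpla3 was 99.3-fold higher, the acyltransferase Dgat2 93.6-fold and glycerol phosphate dehydrogenase Gpd1 57.0-fold. Fasn, fatty acid synthase, was at 8.40 in MA, 4.42 in SPA and 4.51 in SVC, 15.8-fold. Branched-chain amino acids feed lipid synthesis in fat, and of 22 genes of their breakdown 13 were higher and 1 lower, with a median of 2.44. Aldh6a1, of valine breakdown, was 23.1-fold higher, at 4.88 in MA, 0.35 in SPA and 0.17 in SVC. The enzymes of the first step differed in opposite directions, since mitochondrial Bcat2 was 6.44-fold higher and cytosolic Bcat1 10.9-fold lower, at 0.33 in MA, 3.77 in SPA and 3.99 in SVC.

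Subunits of the respiratory chain, in contrast, differed little. Of 45 subunits of oxidative phosphorylation 44 had a positive ratio but 0 reached 5-fold in either direction, with a median of 0.63 and a range from -0.13 to 1.94. Cox8a was at 8.29 in MA and 7.29 in SPA. Of 25 genes of the TCA cycle and pyruvate use 3 were higher, the carboxylase Pcx 19.8-fold, with an outlying local background in SPA, and the pyruvate carriers Mpc1 and Mpc2 5.70-fold and 6.82-fold, where a second probe of Mpc2 gave 0.33 on the log2 scale. Cholesterol synthesis had a median of 0.05, with Hmgcs1 and Insig1 higher, 6.58-fold and 6.59-fold, among 23 genes, and the lowest probe of Hmgcs1 gave 0.26 on the log2 scale. Of 18 clock genes 7 were higher and 1, Bhlhe41, lower. Per2 was 24.7-fold higher, at 1.68 in MA, -2.95 in SPA and -2.36 in SVC, and Dbp, an output gene of the clock, 8.55-fold. The time of day of the preparations is not given in the sources used here.

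Several lists were described mainly by counts, to be read beside the 5.47% of all genes called higher and the 3.97% called lower. Of 19 lipolysis genes 16 were called higher in MA and 0 lower, 6 of them in the table of the study, of 20 insulin signalling genes 9 higher, and of 24 genes of fatty acid oxidation 4 higher. Among 21 adipogenic transcription factors 8 were higher and 1, Gata3, which restrains adipogenesis, lower at -2.50 in MA and -0.14 in SPA. Of 17 secreted acute-phase and transport proteins 14 were higher, and the serum amyloids Saa3 and Saa1 lower, 14.3-fold and 5.37-fold. Of 14 thermogenic genes read 4 were higher and 1, the deiodinase Dio2, 14.1-fold lower. Of 18 fibroblast and progenitor markers 5 were higher and 1, S100a4, lower, and of 12 mesothelial markers 6 were higher and 0 lower. The summed signal of the mesothelial markers was 28.4 times the 75th percentile in MA, 18.5 in SPA and 75.6 in SVC, so it was highest in SVC. Pdgfra, the usual receptor of progenitors, was at 0.49 in MA, 2.54 in SPA and 3.01 in SVC. Of 10 Schwann cell markers 2 were higher, and of 7 mast cell markers 3 higher and 1 lower. For epididymal epithelium 9 of 12 genes were not well above background in MA or SPA and 0 were called. Of 21 integrin chains 3 were higher, among them Itga7 at 27.0-fold, and 4 lower, among them the leukocyte chain Itgb2 at 7.15-fold. Of 18 ER chaperone genes 0 were higher and 1 lower, and of 14 heat shock genes Hspa1a was 17.2-fold higher and Cryab 9.40-fold lower. With 5.56% of ER chaperone genes lower and 7.14% of heat shock genes called each way, these shares were near those over all genes. Of 25 interferon-stimulated genes 4 were higher and 1 lower.

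Genes at the limit of 5-fold were as follows. On the lower side Pik3r5 and Khdrbs3 lay just inside at 5.0-fold and 5.01-fold and Cdca7 just outside, all with a log2 ratio of -2.32. On the higher side Folh1 lay just inside and Zcchc4 and Aox1 just outside at 4.99-fold and 4.98-fold. Of called genes with more than 1 probe, every probe had the same direction in 447 of 479 on the higher side and 356 of 383 on the lower side, and every probe passed 5-fold in 230 and 142. By the brighter of the 2 levels, the share of genes called higher was 1.7% under -2, from 6.62% to 8.83% in the classes between -2 and 6, and 9.47% at 6 or more. The share called lower was 1.41%, from 4.64% to 5.86%, and 6.28% in the same classes. Of 86 called genes named in the text with more than 1 probe, 35 had a probe under 5-fold, such as Il1b at 1.23, Timp4 at 1.16, Per2 at 1.01, Cx3cr1 at 0.79 and Ciita at 0.69 on the higher side, and Cdkn2a at -1.20 and Acta2 at -0.89 on the lower side, all as log2 ratios.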

How the data were processed

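Total RNA of MA, SPA and SVC was measured with 1 Agilent 1-colour array (SurePrint G3 mouse, 60-base probes) each, labelled with Cy3 from 50 ng of RNA. The 3 arrays lie on 1 slide and in 1 scan. The authors deposited the intensity of each spot from Feature Extraction 10.7.3.1 (version per the submitters' processing notes), background-subtracted and detrended within the array, with the raw signal and local background. They also deposited a ratio of that signal to 1 constant per array (largest relative departure 1.23e-06 in MA). Groups were taken from the sample records, and each holds 1 sample, so no test was run.

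From the intensities, control spots and outlier spots (129 in MA, 98 in SPA) were left out, log2 signals were set against the 75th percentile of the array (366 in MA, 439 in SPA, 430 in SVC) and spots of a probe were averaged. Each gene is represented by the probe whose level, averaged over the 3 arrays, was highest, and entered the comparison at the 5-fold limit, which the study also used, when well above background in MA or SPA. A dim probe was replaced by the higher of its own level and the lowest level well above background (-5.15 in MA, -5.14 in SPA), which gives a bound. Probe names were updated through accessions to RefSeq symbols for 33895 of 56605 probes. Promoters are from RefSeq in GRCm38.p6 and were also read for GGGCGG and TATAAA.

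Members, the 50 gene lists and motifs were chosen with earlier results of these data known. Named genes were, in each direction, the 15 largest differences measured on both arrays and the 5 largest bounds outside the table of the study. Added to these were up to 8 called members of each list described, and members without a call with high levels. The adipocyte markers and 2 genes on each side of the limit were added too. Clone-like names kept their rank but are not named, apart from Gm10639. Further beta chains of haemoglobin among the largest bounds are not named either. Some further members were named for their role after their values were seen. 1 gene of a list is not reported here. The calling of genes was run on simulated data, in which SPA signals with small noise stood for MA. Some of the brighter genes were shifted there by more than the limit. That run checks only how ratios are read, since it holds no variation between animals or cultures and shifts no dim genes. The 11 alternatives were normexp, quantile normalization, another percentile, the deposited ratios, 2 filters, 2 probe rules, spots with outlying background left out and 2 fold limits. Python 3.11.15, numpy 2.4.6, pandas 2.3.3, matplotlib 3.10.9, and limma 3.58.1 in R 4.3.3 for normexp, were used. Quantile normalization was done in Python. Precision is limited by having 1 array per condition.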

Additional observations from a re-analysis of the deposited data

How the results depend on the processing

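With the normexp background correction 761 genes were at least 5-fold higher in MA and 457 lower, instead of 1317 and 955, and 757 and 456 of these were among the genes called before. At a limit of 2-fold the numbers were 3786 and 4327, and at 10-fold 650 and 340, so at 2-fold more genes were lower than higher. Under the other 8 alternatives the numbers ranged from 989 to 1758 on the higher and from 762 to 1422 on the lower side, within 1.5 times of the first values. Of 73 counts of called list members, 14 moved by more than 1.5 times with normexp and 59 did not. The same numbers held when only genes well above background on both arrays were read. With normexp the median log2 ratio of the mitosis list went from -2.98 to -2.36 and that of MHC class II genes from 3.33 to 1.99. Of 237 named genes, 16 called ones fell under 5-fold with normexp, 6 with quantile normalization and 18 when the median over its probes stood for a gene. Of these 18, 16 kept their direction, and Col3a1 turned to a log2 ratio of -1.90 and Slco4a1 to 0.15, because their probes disagree. The median log2 ratio of the heat shock list turned from -0.2 to 0.15 with quantile normalization, that of the macrophage markers from 0.45 to -0.2 and of the mesothelial markers from 1.31 to -0.03 when only genes measured on both arrays were read. The cause of the other changes was not tested. No paired analysis was possible because each condition has 1 array. Signal over background limits dim genes, whose differences are bounds.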

Other observations

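Gene families with several members called in 1 direction were looked up after the values were seen, so their counts are a description and support nothing. Of 11 Gbp guanylate-binding proteins, GTPases induced by interferon, 9 were called higher in MA and 0 lower, with Gbp11 88.3-fold and Gbp6 23.1-fold higher. Gbp11 was at 1.56 in MA and -4.90 in SPA. Of 7 Gimap GTPases of lymphocytes and endothelium 5 were higher, from at least 9.15-fold in Gimap3 to 18.6-fold in Gimap5. Of 6 Cd209 lectins 4 were higher, led by Cd209f. Of 17 alpha-1-antitrypsin and Serpina3 genes 12 were higher and 0 lower, from 6.61-fold in Serpina3n to at least 434-fold in Serpina1d, and these copies are too alike to be told apart with certainty.

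On the other side, 4 of 10 Cd300 receptors of myeloid cells were lower in MA, led by Cd300lb at 31.6-fold and Cd300ld at 17.3-fold, and 0 were higher. The 3 probes of Cd300lb ranged from -4.98 to -1.10 in log2 ratio. Clec4d and Clec4n, lectins of phagocytes that sense microbes, were 58.8-fold and 27.8-fold lower, and Clec4d was at -0.02 in MA, 5.85 in SPA and 4.55 in SVC. They were the only 2 called of 8 Clec4 lectins read, whose median log2 ratio was -0.33. Of 11 Lce1 genes, which belong to the late cornified envelope of skin, 4 were lower, led by Lce1g. Lce1g was not well above background in MA, at 0.79 in SPA and 1.29 in SVC, and at least 61.2-fold lower. The local background of its SPA spot was outlying. Of 6 Cdca genes of cell division 4 were lower, with Cdca5 13.8-fold and Cdca8 10.3-fold. In the Slc7 family of amino acid carriers the cystine carrier Slc7a11 and the carrier Slc7a10 were at opposite ends, at least 149-fold lower and 321-fold higher in MA by the probes that were read, while another probe of each gave log2 ratios of -0.53 and 0.28.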
